A study of Mus musculus with 10 samples.

Results

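The comparison described here set the RNA of each of 10 mouse neuroblastomas against one common reference RNA, and all 10 arrays of the study belong to it. In the 5 ALK/MYCN tumours the mice were ALK+/- for a transgene with the F1174L mutation and MYCN+/- for a MYCN transgene, on a C57BL/6 x 129X1/SvJ background. In the 5 MYCN tumours the mice were MYCN+/- without the ALK transgene, on 129X1/SvJ, so genotype and background cannot be told apart between the groups. All tumours were untreated, each came from a different mouse, and all carried MYCN, so no tissue without the transgene was measured. The promoters of the transgenes and the ages of the animals are not given in the sources used here. Tumour RNA was labelled with Cy3 and the reference, a commercial pool of RNA from 11 mouse cell lines, with Cy5, and both were hybridised together to an Agilent array. Each value is therefore a log2 ratio of tumour over reference, where 1 is a doubling and 0 is equality. The reference is 1 pool and the dyes were never swapped, so the tests below cover the spread between tumours but neither the spread of the reference nor a dye bias of single probes.

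Neuroblastoma is a tumour of the sympathetic lineage, which arises from the neural crest and makes catecholamines. A core of transcription factors, among them PHOX2A, HAND2, ISL1 and TFAP2B, specifies these cells, and the enzymes TH, DDC and DBH convert tyrosine step by step to noradrenaline, which is stored with chromogranins in dense-core granules. A tumour also holds vessels and blood cells, whereas the reference is a pool of cultured cells. In bulk RNA a difference in the number of cells of a type cannot be told apart from one in the RNA per cell.

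The 250 bases before the transcription start of 3 genes far above the reference are shown because they carry short elements known from catecholamine and granule genes. The sequences are those of RefSeq on GRCm38.p6, printed in the direction of the gene, 5′ to 3′. Capitals mark every TGACGTCA, the cAMP response element, and every ATTAG or its reverse complement, a core letter group bound by many homeodomain proteins. The windows are chr7:142899996-142900245 (minus strand) for Th, chr2:27165257-27165506 (plus strand) for Dbh and chr2:132781392-132781641 (plus strand) for Chgb.
Th: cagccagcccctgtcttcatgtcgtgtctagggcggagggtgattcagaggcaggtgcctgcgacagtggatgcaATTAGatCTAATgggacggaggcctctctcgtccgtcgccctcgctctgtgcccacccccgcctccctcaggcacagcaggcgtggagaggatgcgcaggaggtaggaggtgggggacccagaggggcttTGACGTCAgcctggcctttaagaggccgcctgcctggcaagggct
Dbh: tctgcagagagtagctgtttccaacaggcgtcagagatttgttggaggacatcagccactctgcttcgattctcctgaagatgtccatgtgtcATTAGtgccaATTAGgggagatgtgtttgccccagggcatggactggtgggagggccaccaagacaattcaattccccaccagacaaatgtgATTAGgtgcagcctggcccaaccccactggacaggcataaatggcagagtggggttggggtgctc
Chgb: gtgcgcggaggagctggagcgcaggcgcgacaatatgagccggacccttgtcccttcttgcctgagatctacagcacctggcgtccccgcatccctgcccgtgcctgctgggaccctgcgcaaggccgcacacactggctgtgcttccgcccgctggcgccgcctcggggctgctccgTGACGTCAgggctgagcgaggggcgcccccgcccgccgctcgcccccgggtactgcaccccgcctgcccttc
In Th the cAMP response element began 45 bases before the start, and in Chgb 72 bases before it. Dbh held 3 ATTAG groups, beginning 157, 147 and 65 bases before the start, and Th held 2. Among 12363 tested genes with a listed promoter, 2.6% held TGACGTCA on either strand in this window, against 19 of the 396 genes far above the reference with a promoter (4.8%) and 5 of the 240 far below (2.08%). ATTAG was found in 16.6% of all windows and in 14.9% and 18.3% of the same groups. Of 8 motifs searched on both strands, the others were CACGTG (7.98% of all windows, 5.05% far above, 4.58% far below), CAGCTG (12.0%, 14.9% and 10.4%), TATAAA (7.69%, 7.32% and 14.6%), ATAAA, which TATAAA contains (25.7%, 20.2% and 31.2%), TAATTA (2.6%, 2.78% and 5.83%) and CAATTA (4.61%, 5.56% and 7.5%), whose letters can overlap ATTAG. The matches describe these letters only.

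Of 23330 genes tested, 2075 (8.89%) were more than 2-fold higher and 2487 (10.7%) more than 2-fold lower in the tumours than in the reference, by limma's test against a 2-fold threshold (treat) with Benjamini-Hochberg adjustment at 0.05. The counts of list members called higher or lower below stand beside these shares of all genes. With each array centred on its spike-in controls, which moved the median of all genes from 0.03 to 0.27 on the log2 scale, the split was 2806 higher and 1903 lower, so the balance of directions depended on the scaling. A gene was called far above or far below when its log2 ratio was at least 2 or at most -2 on each of the 10 arrays, a difference of at least 4-fold. There were 605 such genes above (2.59%) and 441 below (1.89%). Syn1, whose lowest tumour lay at 2.15, and Syp, whose lowest lay at 1.94, are examples just inside and just outside this limit.

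**Figure D1:**
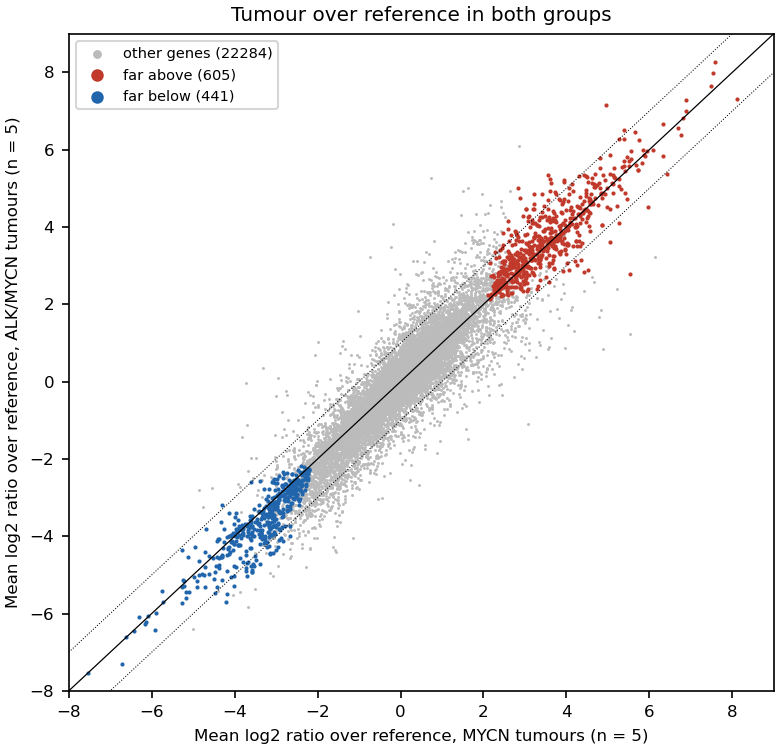
Mean log2 ratio over the reference in the 5 MYCN tumours (horizontal axis) and the 5 ALK/MYCN tumours (vertical axis), 1 point per gene; the solid line is equality, the dotted lines mark a difference of 1, and colours mark the 605 genes far above and the 441 far below. Most coloured points lie between the dotted lines.

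The distance from the reference was shared by both groups for most of these genes. A gene was counted as alike when the 95% confidence interval of the difference between the groups (limma) lay within 1 of 0 on the log2 scale, which held for 83.9% of all genes. It held for 472 of the 605 genes far above (78.0%) and for 309 of the 441 far below (70.1%), shares below that of all genes. Between arrays, the ratios correlated at 0.818 to 0.976 over 17201 genes measured in both channels on all arrays. For arrays of different groups the correlations ran from 0.818 to 0.922. The lowest within a group were 0.918 for ALK/MYCN and 0.872 for MYCN. These values share the reference.

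Detection differed between the far genes. Of those far above, 387 were well above background in both channels on all arrays and 81 in the tumour channel only. The other 137 were mixed: one or both channels were detected on a part of the arrays, or one only through another probe. Of those far below, 279 were measured in both channels throughout and 33 in the reference channel only, and 129 were mixed. For genes seen in one channel only, the fold is given as a lower limit, computed per channel after scaling the arrays to a common distribution (loess, then Aquantile) against the weakest signal still well above background. Each limit is for the mean over the 10 arrays, so a single tumour can lie below it. Such limits are open to dye bias.

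The genes described next had the highest ratios among those alike in both groups and measured in both channels throughout, with clones, predicted genes and accessions left out. Nefl, the light neurofilament chain, ranged from 7.40 to 8.19 over the tumours, with a median of 7.79. The ALK/MYCN tumours all lay above the MYCN tumours, by 0.43 on average, and the mean of 7.76 ± 0.05 (SE, n = 10) corresponded to 217-fold (limma treat adjusted p = 1.13e-14; probe at chromosome 14, 68705638 to 68705698, mm9). Chgb, encoding the granule protein chromogranin B, ranged from 5.29 to 6.90 with a median of 6.67. The lowest value was that of ALK/MYCN 4, apart from the other tumours, which began at 6.47, and the mean was 6.56 ± 0.13 (94.7-fold, adjusted p = 3.07e-11).

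The next of these genes had means between 5.43 and 6.03. Insm1, a zinc finger factor of neuroendocrine cells, had a mean of 6.03 and Scg3, a secretogranin, one of 6.01. Celf3, a neuronal RNA-binding protein gene, stood at 5.86, Nefm, the medium neurofilament chain, at 5.77, and Mapk10, the neuronal JNK kinase, at 5.64. For Mapk10 a second probe gave a mean of 2.01, and the cause of the difference was not tested. Isl1 (5.55) and Hand2 (5.43) are transcription factors of the sympathetic core, and Tubb3 (5.44) and Stmn4 (5.48) encode a neuronal tubulin and a tubulin-binding protein. Wscd2 (5.92), Bex2 (5.66) and Nsg2 (5.53) were also among the 15 highest with a gene symbol. The lowest value in any tumour among these highest genes was 5.11, that of Hand2 in MYCN 2.

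**Figure D2:**
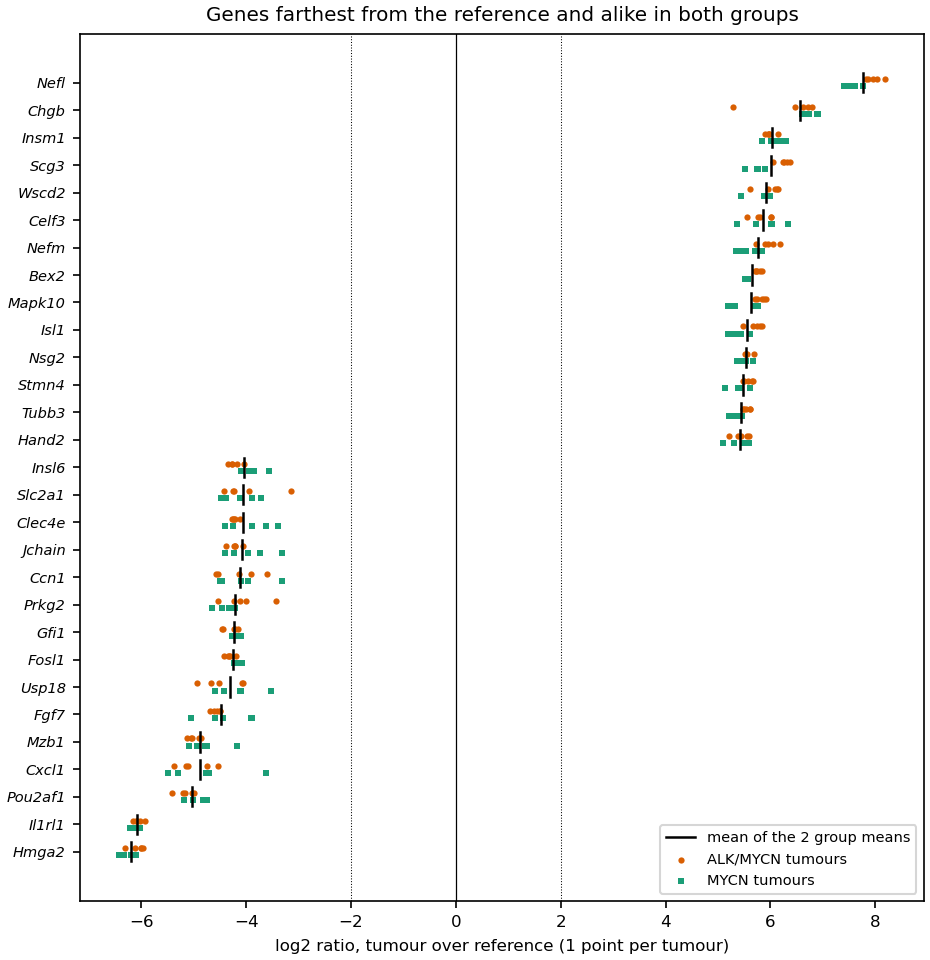
Log2 ratio over the reference in each tumour for the genes named as highest or lowest among those alike in both groups and measured in both channels on all arrays; circles are the 5 ALK/MYCN and squares the 5 MYCN tumours, black bars are the means, dotted lines mark 2 and -2. The high genes lie between 5.11 and 8.19 and the low ones between -6.43 and -3.15 in every tumour.

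In the tumour channel only, Tfap2b stood first. This transcription factor gene of the sympathetic core was well above background in all 10 tumours and on 0 of 10 arrays in the reference, and it was at least 214-fold higher in the tumours (probe at chromosome 1, 19228555 to 19228614, mm9). Its measured log2 ratios ran from 7.16 to 8.61 with a median of 7.96, with ALK/MYCN 1 the highest. Gdap1, a mitochondrial protein gene mutated in a hereditary neuropathy, was at least 36.4-fold higher, Cracd, which encodes an inhibitor of actin capping, at least 28.3-fold, and Adgrb3, an adhesion receptor of the brain, at least 24.9-fold. Dapk1, a death-associated kinase, followed with at least 21.1-fold, Unc5a, a netrin receptor, with at least 18.9-fold, and Rai2 with at least 15.8-fold. The limits for Nudt10 (29.6-fold) and Nudt11 (22.2-fold) are uncertain because these neighbouring genes are near-identical, and that of Slc10a4l (25.6-fold), matched through an older name, is uncertain because that name belongs to a family of similar transporter genes.

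Among sympathetic transcription factors, 10 of 14 measured genes were higher and 0 lower, with a list median of 3.45 beside 0.03 for all genes tested. Besides those already given, Phox2a, a homeobox gene of the same core, ranged from 4.52 to 4.80 with a median of 4.61, a span narrower than that of the other members named. The list's median lay between 3.32 and 3.64 in every tumour. Phox2a, Insm1, Isl1, Hand2 and Tfap2b were among the 8 of 14 members far above the reference in all 10 tumours.

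For catecholamine synthesis and storage, 7 of 10 measured genes were higher and 0 lower, with a median of 2.99. Th, the rate-limiting enzyme, ranged from 4.24 to 4.63 over the tumours with a median of 4.39, and its mean of 4.41 ± 0.03 was 21.2-fold (limma treat adjusted p = 1.81e-14). Ddc, the decarboxylase that makes dopamine, ranged from 4.42 to 5.01 with a median of 4.76. Dbh, which makes noradrenaline, was less far above, from 2.81 to 3.53 with a median of 3.27. The 3 enzymes of the path were thus far above the reference in every tumour of both groups, with Ddc 26.5-fold and Dbh 9.36-fold on average.

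The transporters varied more. Slc18a2, the monoamine transporter of granules, ranged from 3.30 to 5.44 with a median of 4.37, and Cyb561, a cytochrome of the granule membrane, from 3.41 to 4.96. Both were far above the reference everywhere but did not meet the criterion for alike, which does not by itself show a difference between the groups. Slc18a1, the second monoamine transporter, was above background in all tumours and on 0 of 10 reference arrays, at least 6.15-fold higher on average. Its tumours ran from 1.33 to 5.81.

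The dense-core granule list had 11 of 14 measured members higher and 0 lower, with a median of 3.39. Syt1, a calcium sensor of release, had a mean of 5.87, although the reference was above background on 6 of 10 arrays. Chga, chromogranin A, lay between 4.74 and 5.07 in all tumours, and Scg5, a chaperone of prohormone convertase, between 4.16 and 4.72. Scg2, secretogranin II, ran from 1.59 to 5.87 and was measured in the reference on 1 array. Chga and Scg5 were thus even across the tumours, and Scg2 was not.

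Of the genes for synaptic vesicles and release, 10 of 15 were higher and 0 lower, with a median of 1.94. Cplx1, a clamp of the fusion machinery, was highest with a range from 4.69 to 5.45, followed by Syn2 (4.31) and Rab3a (3.40), a synapsin and a vesicle GTPase. Syp, synaptophysin, had a mean of 2.53, Sv2c one of 2.34 and Syn1 one of 2.30. The other probes of Sv2c gave means up to 4.45.

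The neuronal cytoskeleton had a median of 4.29, with 17 of 18 measured genes higher and 0 lower. Dcx, doublecortin of migrating neurons, was at least 57.5-fold higher on its brightest probe, which was above background on 0 of 10 reference arrays, and another probe gave a mean log2 ratio of 1.48. Crmp1, a collapsin response mediator, lay between 4.46 and 4.85 in all tumours. Prph, peripherin, was the 1 member that did not pass, with a mean of 1.23 and tumours from -1.27 to 3.87. It is named here after its value was seen.

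Neuronal RNA-binding proteins were higher in 9 of 12 measured genes and lower in 0, with a median of 3.27. Rbfox1, a neuronal splicing factor, had a mean of 4.91, Elavl4 (HuD) one of 4.90 and Elavl2 (HuB) one of 3.62. Srrm4, which drives the inclusion of neuronal microexons, had a mean of 3.57 and Elavl3 (HuC) one of 3.29. Elavl3 lay between 3.15 and 3.39 in all 10 tumours, whereas Elavl2 ran from 2.75 to 4.56.

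Among receptors of sympathoblasts, 5 of 11 measured genes were higher and 0 lower, with a median of 1.37. For 4 of the 11 the reference was not well above background on any array, and the median was 3.22 with scanner-processed signals. Gfra3, a co-receptor for the GDNF family ligand artemin, ranged from 4.24 to 6.41, and Adcyap1r1, the receptor for the peptide PACAP, from 4.48 to 5.28. Alk ranged from 3.55 to 4.84 with a median of 4.32, and Ntrk3, a neurotrophin receptor, from 2.31 to 3.35. Ret, the signalling receptor of the GDNF family, was at least 9.03-fold higher on average, with tumours from 1.08 to 5.55. Whether the probes for Alk and Mycn, designed on the mouse genes, also capture RNA of the transgenes was not tested.

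**Figure D3:**
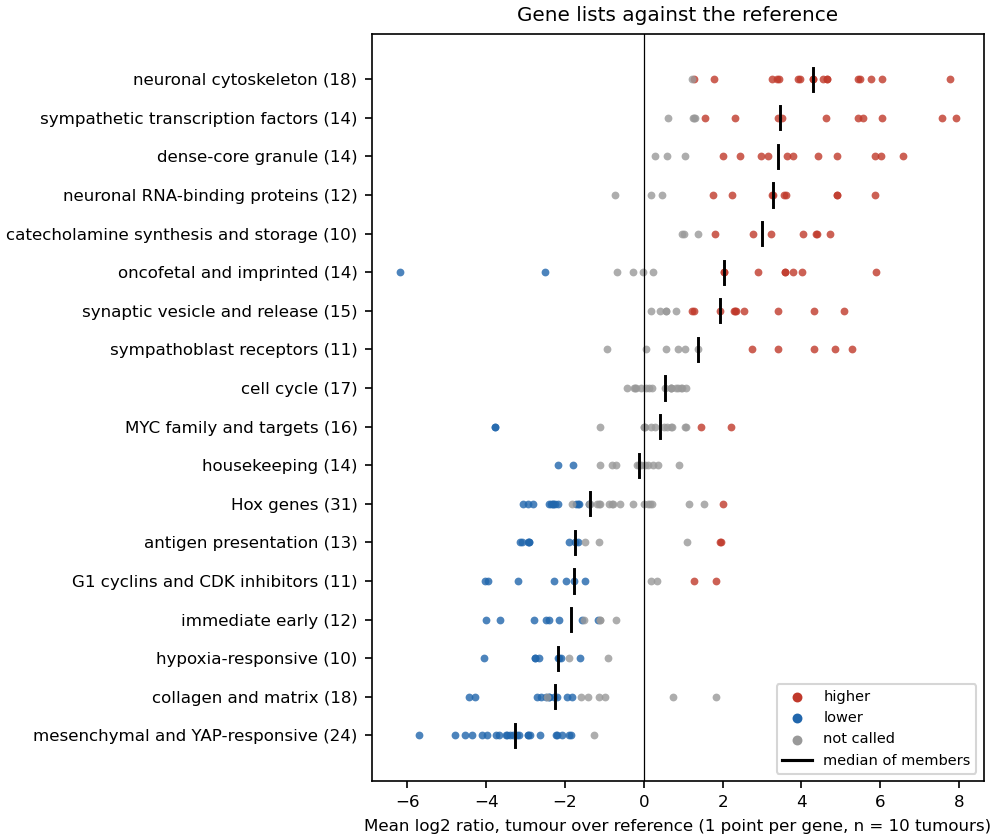
Mean log2 ratio of tumour over reference for each measured member of 18 gene lists (number measured in brackets), 1 point per gene over 10 tumours, red for genes called higher, blue for lower and grey for not called, with the list's median as a black bar. Lists of neuronal and sympathetic genes have medians from 1.37 to 4.29, and the list of mesenchymal and YAP-responsive genes has -3.27.

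The oncofetal and imprinted genes split. Of 14 measured, 8 were higher and 2 lower, with a median of 2.04. Lin28b, which blocks the maturation of let-7 miRNAs, ranged from 3.12 to 4.21 with a median of 3.55, although another probe gave a mean of 1.42. The imprinted genes Magel2 (5.90), Ndn (4.02), Dlk1 (3.79) and Meg3 (3.58) were far above the reference in all tumours.

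The 2 lower members were Hmga2, a chromatin protein of embryonic and cultured cells, and Igf2bp1, an RNA-binding protein of fetal tissue. Hmga2 ranged from -6.43 to -5.97 with a median of -6.16, and Igf2bp1 from -2.76 to -2.30. Hmga2 and Lin28b are both known let-7-linked genes, and they stood on opposite sides of the reference in all 10 tumours.

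The MYC family also stood on both sides. Mycn ranged from 0.33 to 4.83 with a median of 2.07 and a mean of 2.23 (limma treat adjusted p = 1.48e-04), with all ALK/MYCN tumours above all MYCN tumours. Myc ranged from -4.69 to -2.75 with a median of -3.82, and Mycl from -4.10 to -3.54 with a median of -3.78. Both were at least 4-fold below the reference in every tumour. Among 16 measured genes of the family and its targets, 2 were higher and 2 lower (8.89% and 10.7% of all genes tested). Their median was 0.41. The second higher gene was Nop56 (1.45), a nucleolar protein, whose call was lost with median centring (1.10) and with the mean over its probes (0.81).

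Cell cycle genes were near the reference: of 17 measured, 0 were called in either direction, with a median of 0.54 and members from -0.43 to 1.08. G1 regulators were not. Of 11 measured, 7 were lower and 2 higher, with a median of -1.77. Cdkn2b, an inhibitor of the kinases CDK4 and CDK6, ranged from -4.47 to -3.13 with a median of -4.08, and Cdkn2a, a tumour suppressor gene, from -5.13 to -1.48.

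Ccnd2 (-3.20) and the inhibitor gene Cdkn1a (-2.27) were also lower. The 2 higher genes were Ccnd1, cyclin D1, with tumours from 1.34 to 2.99, and Ccne1, cyclin E1, with a mean of 1.28. The call of Ccne1 was lost without any one of 6 tumours (ALK/MYCN 1, 2 or 4, or MYCN 1, 2 or 5), with a limma adjusted p of up to 0.0841, and it was 0.0617 without MYCN 2, MYCN 4 and ALK/MYCN 3.

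Among genes with a symbol that were far below the reference, alike in both groups and measured in both channels throughout, Hmga2 had the lowest ratio, a mean of -6.19 ± 0.05 or 72.9-fold lower (SE, n = 10, limma treat adjusted p = 2.78e-14, probe at chromosome 10, 119798739 to 119798798, mm9). Its second probe gave -4.33. Il1rl1, the receptor for interleukin 33, ranged from -6.21 to -5.92 with a median of -6.07, and was 67.5-fold lower on average (adjusted p = 1.13e-14), with probes from -6.76 to -3.04. All 10 tumours lay within a narrow band for both genes.

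Pou2af1, a coactivator of B cells, ranged from -5.42 to -4.74, Mzb1, a chaperone of plasma cells, from -5.14 to -4.18, and Jchain, the joining chain of antibodies, from -4.39 to -3.32. Immunoglobulin genes were counted after their values were seen. Of 46 gene names whose array description is an immunoglobulin chain, 30 were lower and 0 higher, with a median of -2.63, and they made up 10 of the 20 lowest means. Probes of this multigene family can share transcripts.

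Cxcl1, a chemokine, had a mean of -4.88, Fgf7, a fibroblast growth factor, one of -4.48, and Usp18, an interferon-induced protease, one of -4.30. Fosl1, a partner of JUN, lay between -4.43 and -4.08 in all tumours, and Gfi1, a transcriptional repressor of blood progenitors, between -4.45 and -4.10. Prkg2 (-4.22), a kinase activated by cyclic GMP, Ccn1 (-4.11), a YAP-responsive matrix protein, Clec4e (-4.06), a receptor of myeloid cells, Slc2a1 (-4.06), the glucose transporter, and Insl6 (-4.05) completed the 15 lowest with a gene symbol.

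Genes measured in the reference and on 0 of 10 tumour arrays were led by Ereg, a ligand of the EGF receptor, at least 16.6-fold lower in the tumours (probe at chromosome 5, 91522553 to 91522612, mm9). Car6, a secreted carbonic anhydrase, was at least 14.4-fold lower, Tespa1, a thymocyte gene, at least 14.1-fold, Foxf2, a mesenchymal forkhead factor, at least 8.61-fold and Fut1, a fucosyltransferase, at least 8.43-fold. The limits were 7.77-fold for Defb41, 6.99-fold for Mst1 and 6.27-fold for Foxb1. For Hoxa11 and Hoxb13, posterior members of the HOX clusters, they were 6.77-fold and 6.14-fold.

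Of 31 measured Hox genes, 13 were lower and 1 higher, with a median of -1.36, which was -2.44 with scanner-processed signals. Hoxc4, the 1 higher gene, ranged from 1.61 to 2.78.

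Mesenchymal and YAP-responsive genes formed the lowest list apart from B cell markers. Of 24 measured genes, 23 were lower and 0 higher, with a median of -3.27 and list medians per tumour from -4.10 to -2.24. S100a4, a calcium-binding protein of motile fibroblasts, ranged from -6.76 to -4.35, Anxa3, an annexin, from -5.46 to -3.27, and Anxa1 from -6.48 to -2.59. Ankrd1, a classical YAP-responsive gene, ranged from -5.82 to -1.28 and S100a6 from -5.68 to -2.44. Tagln2 was the 1 gene not called (-1.27).

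Collagen and matrix genes were lower in 11 of 18 measured and higher in 0, with a median of -2.24, and varied more between tumours. The list's median ran from -3.55 in ALK/MYCN 1 to -0.53 in MYCN 4. Fn1, fibronectin, ranged from -6.78 to -1.87. Lox, which cross-links collagen, ranged from -5.19 to -2.48 and was above background in 8 tumours. Timp1 (-2.72), an inhibitor of matrix proteases, and Col1a2 (-2.60) were lower on average, with single tumours near the reference at -0.31 and -0.58.

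Immediate early genes were lower in 8 of 12 measured and higher in 0, with a median of -1.86. Egr1 had tumours from -5.55 to -1.42, Fos from -4.95 to -1.23 and Fosb from -3.32 to -1.29. Hypoxia-responsive genes were lower in 8 of 10 and higher in 0, with a median of -2.17. Slc2a1 ranged from -4.48 to -3.15, Car9, a carbonic anhydrase induced by HIF, from -3.01 to -2.45, and Pdk1, which restrains pyruvate oxidation, from -3.10 to -2.33.

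Of 13 measured genes of antigen presentation, 8 were lower and 2 higher, with a median of -1.73. Among the lower ones, which included genes of the class I path, Tap2, a peptide transporter, had a mean of -3.13, Psmb9, an immunoproteasome subunit, one of -3.10, B2m, the light chain of class I, one of -2.94 and Tapbp, a peptide-loading chaperone, one of -2.92. The class II genes H2-Aa and H2-Ab1 (1.93) were the higher ones. H2-Aa was well above background in 9 tumours and on 0 reference arrays. Against the weakest reference signal still well above background it was 3.27-fold higher on average. This is not a strict lower limit, because not every tumour was above background. In limma's test the calls of H2-Aa and H2-Ab1 were lost without MYCN 2, MYCN 4 and ALK/MYCN 3 (adjusted p = 0.309 and 0.208). Those tumours held markers of other tissues. The calls were also lost without single tumours: ALK/MYCN 2, 3 or 4 or MYCN 3 or 4 for both, and MYCN 2 for H2-Aa.

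Housekeeping genes lay near the reference, with 2 of 14 measured lower, beside 10.7% of all genes tested, and 0 higher. Their median was -0.12, which became 0.13 with spike-in centring. The 2 lower were Gusb (-1.80), a lysosomal enzyme, and Pgk1 (-2.18), a glycolytic enzyme, whose probe the array places on chromosome 3, away from the X-linked gene.

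Blood and vessel genes were among those above the reference. Of 12 measured endothelial markers, 8 were higher and 0 lower, with a median of 1.73. Robo4, an endothelial guidance receptor, ranged from 1.86 to 4.23, Cldn5, a junction protein, from 0.97 to 4.61 and Plvap, a protein of fenestrated vessels, had a mean of 2.73. The reference was above background on 7 of 10 arrays for Robo4 and on 2 for Cldn5. With scanner-processed signals the median of this list was 3.00, and with genes measured in both channels throughout it was 0.35.

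Macrophage markers were higher in 6 of 14 measured and lower in 1, beside 8.89% and 10.7% of all genes tested. Their median was 0.80. The complement genes C1qa (3.17 to 4.29), C1qb (2.70 to 4.63) and C1qc (2.73 to 3.35) were far above the reference in all tumours, whereas Cd14, a receptor for bacterial lipopolysaccharide, was the 1 lower gene (-3.78). Of 6 measured erythroid markers, 3 were higher: Hba-a1 (3.98), Hbb-b2 (3.68) and Alas2 (2.75), the first enzyme of haem synthesis in red cells. The call of the macrophage gene Marco (2.24) did not hold when MYCN 2 or any one of the ALK/MYCN tumours 1, 3 and 5 was left out, nor when MYCN 2, MYCN 4 and ALK/MYCN 3 all were. Globin probes can capture near-identical copies.

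A part of the lymphocyte and epithelial markers lay below. Of 7 measured B cell markers, 4 were lower and 0 higher, with a median of -4.04, led by Pou2af1, Ms4a1 (-4.81) and Cd79b (-4.66), and Ms4a1 was above background in 2 tumours. Of 8 T cell markers, 3 were lower, namely Cd3g (-3.25, above background in 6 tumours), Lck (-2.21) and Cd3e (-2.12), and 0 were higher. The other 5 were not called, and the median of the T cell list was -0.84. Of 10 epithelial markers, 5 were lower, 5 not called and 0 higher, with a median of -1.62. The keratin genes Krt18 (-5.59), Krt8 (-4.93) and Krt19 (-4.91) were lowest. All 3 keratin genes were least low in MYCN 2, where Krt19 was at -1.75.

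The hepatocyte list had 2 of 7 measured genes higher and 1 lower. Trf, transferrin, ranged from 3.79 to 5.18, Afp, alpha-fetoprotein of the fetal liver, from -3.86 to -2.61 with 4 tumours above background, and Serpina1a had a mean of 2.02, a call lost with the mean over its probes (1.27). Schwann cell markers were higher in 3 of 5 measured, among them Sox10 (1.65) and Fabp7 (1.75). The call of Fabp7 was lost without MYCN 2, MYCN 4 and ALK/MYCN 3 (limma adjusted p = 0.0619).

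Markers of 3 other tissues differed widely between tumours. The median of 8 adipocyte markers was 5.81 in MYCN 4, 4.02 in ALK/MYCN 3, 2.73 in MYCN 3, 2.23 in MYCN 5, 1.53 in MYCN 2 and 0.75 in MYCN 1. In the other ALK/MYCN tumours it lay between -0.59 and 0.21. The median of 8 skeletal muscle markers was 4.06 in MYCN 2 and 1.64 in MYCN 1, while the others lay between -1.54 and -0.81. That of 4 adrenal cortex markers was 3.58 in ALK/MYCN 3 and between -0.26 and 0.31 in all others, and Star, which delivers cholesterol for steroid synthesis, reached 7.39 there.

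As groups, 2 of 8 adipocyte markers were called higher, Fabp4 (3.39) and Cfd (3.23), 1 of 8 muscle markers, Myh3 (2.73), 0 of 4 adrenal cortex markers and 0 of 4 markers of germ and embryonic stem cells. Of all genes tested, 8.89% were called higher. The call of Cfd was lost without ALK/MYCN 4, MYCN 3, MYCN 4 or MYCN 5, and also when MYCN 2, MYCN 4 and ALK/MYCN 3 were all left out (limma adjusted p = 0.102). Without those 3 tumours, 686 genes were far above and 745 far below the reference, against 605 and 441 with all 10. A criterion over fewer arrays is easier to meet, and the part of these tissues in the difference was not tested.

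**Figure D4:**
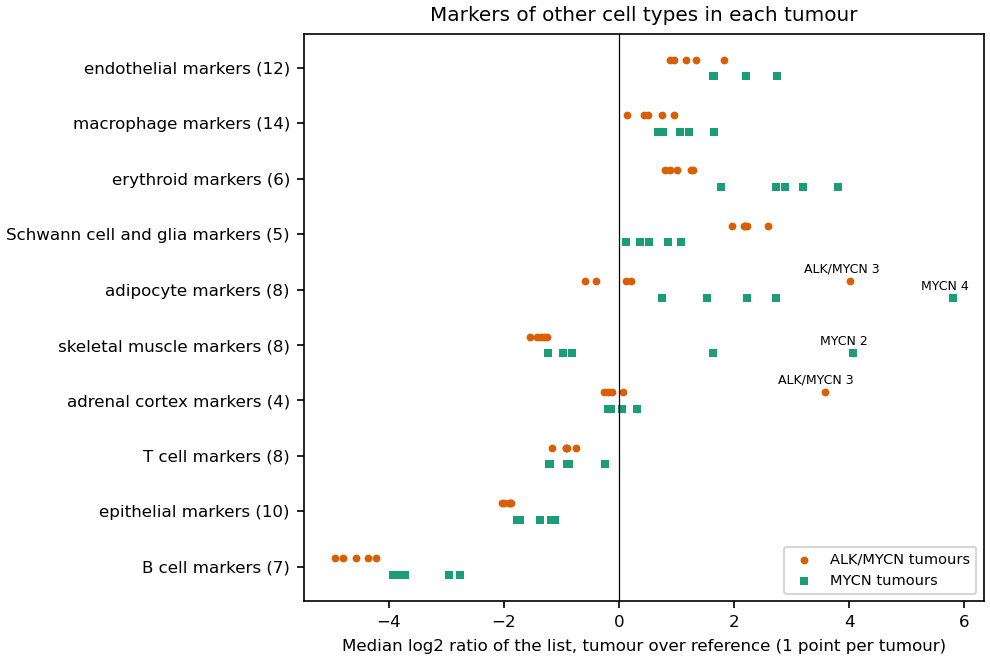
Median log2 ratio over the reference of the measured markers of 10 cell types (number in brackets) in each tumour; circles are ALK/MYCN and squares MYCN tumours. Adipocyte markers reach 5.81 in MYCN 4 and 4.02 in ALK/MYCN 3, muscle markers 4.06 in MYCN 2 and adrenal cortex markers 3.58 in ALK/MYCN 3.

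The repeated reference gave a measure of technical spread. Over 17201 genes measured in both channels on all arrays, the median SD across arrays was 0.218 in the tumour channel and 0.0806 in the reference channel, in which the same RNA was hybridised 10 times. The tumour channel had the larger SD for 93.7% of these genes. These values over 10 arrays include the difference between the groups. Within ALK/MYCN the median SD was 0.158 in the tumour channel and 0.0671 in the reference channel, and within MYCN 0.174 and 0.0838. The ratios of genes far below varied more, with a median SD of 0.428, than those of genes far above (0.251) or of the remaining genes (0.207). In the tumour channel alone the median SD was 0.415 for genes far below, 0.395 for genes far above and 0.214 for the remaining genes. In the reference channel it was 0.0699, 0.165 and 0.0802 in the same order. As a description, genes far below were dim in the tumour channel, with a median log2 signal of 8.10 against 12.2 for genes far above. The cause of the difference in spread was not tested.

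For some genes far above, the ratio hardly differed between tumours, and these are named after their values were seen. Bex1 lay between 3.98 and 4.12 in all 10 tumours, an SD of 0.0399 around a mean of 4.04. Meg3, an imprinted long non-coding RNA, lay between 3.52 and 3.67, Apba2, a neuronal adaptor protein, between 3.64 and 3.83, and Kif1a, a motor of axonal vesicle transport, between 4.11 and 4.28. For Kif1a another probe gave a mean of 2.10 and for Meg3 one gave 5.91. In these genes both channels varied together, although the reference is the same RNA on each array. The SD across arrays was 0.805 in the tumour channel and 0.760 in the reference channel for Kif1a, and 0.284 and 0.297 for Apba2. It was 0.211 and 0.185 for Meg3 and 0.185 and 0.203 for Bex1. Of the 17201 genes measured in both channels on all arrays, 95% had a reference-channel SD below 0.183. For the 387 of them far above the reference the median was 0.165, against 0.0802 for genes that were neither far above nor far below.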

How the data were processed

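The deposited scanner files hold spot intensities of both channels. Per the file headers they come from Agilent Feature Extraction 10.7.3.1, and probes are placed on mm9. The deposited value table holds log2 ratios of scanner-processed Cy3 over Cy5 (within 5.01e-04 on every array, column medians -0.186 to -0.035), so scale, centring and direction are known. Deposited log10 ratios per the file headers were used only for the direction. From the deposited mean and background intensities, signals were corrected with normexp (offset 50) and normalised by loess within arrays with control spots at weight 0, and 177 to 345 outlier spots per array were removed. No spot was saturated. Of 55681 probes, 32525 were well above background in either channel on at least 5 of 10 arrays. For each of 23330 genes the brightest probe on average was used. Between 53.8% and 58.7% of spots were above background in Cy3 and 49.1% to 53.6% in Cy5; the number of arrays limits the precision.

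Names came from RefSeq tables of GRCm38.p6 (14769 by accession, 912 by symbol, 170 by synonym, 7479 kept from the array), used for names and promoters. The test was limma 3.58.1 (treat, both groups of 5 in 1 fit) in R 4.3.3, checked on simulated data. Named genes were the 15 highest and 15 lowest far genes alike in both groups, the 10 largest limits in each channel, and up to 6 members of each list by size, leaving out clones, predicted genes and accessions. Members of counts of 5 or fewer, chosen after their values were seen, are named as well. The members and lists were chosen with earlier results of these data known. The arrays lay on 3 slides, each with both groups but not evenly. Slide 2 held mostly ALK/MYCN and slide 3 mostly MYCN arrays. The main fit had no term for the slide, so group differences and alike calls can include slide effects. Other settings of background, normalisation, filter, probe summary, blocks and threshold were tried, as was the removal of each tumour. Spike-in centring for the calls and lists, and the removal of 3 tumours, were chosen after seeing the data. Results for some genes that these rules name are not reported here.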

Additional observations from a re-analysis of the deposited data

Results flagged for a closer look

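In groups of 5, a tumour stood apart when its gap to the nearest other tumour was over 0.71 of the group's range (Dixon's test at 95%), which chance gives in about 1 of 20 groups. With 148 genes and 30 list medians in 2 groups there were 356 looks, of which 1 in 20 is 17.8, and 20 tumours' values stood apart, a number near that. ALK/MYCN 1 stood apart from its group with log2 ratios of 8.61 for Tfap2b (others 8.11 to 8.25). ALK/MYCN 2 stood apart from its group with log2 ratios of 5.68 for Nsg2 (others 5.52 to 5.56). ALK/MYCN 3 stood apart from its group with log2 ratios of -1.98 for Ccnd2 (others -4.11 to -3.57) and 7.39 for Star (others -0.05 to 0.11). ALK/MYCN 4 stood apart from its group with log2 ratios of 5.29 for Chgb (others 6.47 to 6.80), 2.77 for Scg2 (others 5.13 to 5.87), 2.99 for Ccnd1 (others 1.79 to 2.04) and 2.78 for Hoxc4 (others 1.82 to 2.04). ALK/MYCN 5 stood apart from its group with log2 ratios of 2.96 for Ntrk3 (others 2.31 to 2.48). MYCN 1 stood apart from its group with log2 ratios of 0.99 for H2-Ab1 (others 2.59 to 3.17). MYCN 2 stood apart from its group with log2 ratios of 5.43 for Wscd2 (others 5.88 to 5.99) and -4.42 for Krt18 (others -6.34 to -6.00). MYCN 4 stood apart from its group with log2 ratios of 4.69 for Cplx1 (others 4.92 to 5.02), -3.13 for Cdkn2b (others -4.47 to -4.22) and 5.18 for Trf (others 3.79 to 4.16). MYCN 5 stood apart from its group with log2 ratios of -2.93 for Defb41 (others -3.15 to -3.11) and 3.40 for Rab3a (others 2.81 to 2.96). Of the list medians, those in ALK/MYCN 3 were 4.02 for adipocyte markers (others -0.59 to 0.21), 3.58 for adrenal cortex markers (others -0.26 to 0.07) and -0.64 for Hox genes (others -1.89 to -1.55). The cause was not tested.

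The ratio to the reference also differed between the groups for 49 of the 148 genes (limma, adjusted p under 0.05 over all genes), beside 24.9% of all 23330 genes, 222 of the 605 far above and 73 of the 441 far below. These genes were chosen for the text with values known, and genotype and strain background cannot be told apart. The median log2 ratio of the spike-in controls lay between -0.456 and -0.278 on the ALK/MYCN arrays and between -0.293 and -0.0205 on the MYCN arrays. The size of small differences between the groups therefore depends on the scaling. Neither these differences nor the alike genes were computed with spike-in centring. The ALK/MYCN mean minus the MYCN mean, on the log2 scale, was positive for 31 genes. It was at least 1 for Ret (2.90), Mycn (2.85), Fabp7 (2.71), Scg2 (2.30), Tagln2 (1.85), Slc18a2 (1.503), Elavl2 (1.34), Syn2 (1.17) and Sox10 (1.16). It was smaller for Gfra3 (0.96), Srrm4 (0.89), Elavl4 (0.86), Pgk1 (0.81), Dcx (0.79), Rab3a (0.79), Ccne1 (0.72), Tfap2b (0.67), Syp (0.65), Cracd (0.52), Scg3 (0.49), Adgrb3 (0.49), Nefl (0.43), Nefm (0.39), Adcyap1r1 (0.38), Mapk10 (0.36), Isl1 (0.32), Ddc (0.27), Th (0.23), Bex2 (0.22), Tubb3 (0.21) and Crmp1 (0.20). It was negative for 18 genes, namely Fabp4 (-4.31), Alas2 (-2.56), Cldn5 (-2.17), Cd79b (-1.26), Robo4 (-1.23), Plvap (-1.13), Lox (-1.10), C1qb (-1.09), Anxa3 (-1.01), Hba-a1 (-0.79), Afp (-0.71), Hbb-b2 (-0.57), C1qa (-0.46), Lin28b (-0.46), C1qc (-0.38), Insl6 (-0.34), Nop56 (-0.34) and Car9 (-0.26).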

How the results depend on the processing

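Leaving out single tumours gave 1999 to 2068 genes higher, 2374 to 2530 lower, 605 to 639 far above and 441 to 524 far below, of which 459 to 495 and 292 to 356 were alike. Scanner-processed signals gave 3413 higher, 1155 far above and 880 far below, and a median reference-channel SD of 0.126. Requiring both channels on all arrays gave 1314 higher, 388 far above, 280 far below and 175 far below and alike, with fewer genes tested. A 4-fold threshold gave 811 higher and 737 lower, and no fold threshold 10010 and 9381. A log2 limit of 1 for far genes gave 1439 and 1492, and a limit of 3 gave 275 and 132. Slide 1 alone, with 2 tumours, gave 1332 far below. Without ALK/MYCN 3, MYCN 2 and MYCN 4, left out after seeing the data, 745 were far below and 494 of these alike. The housekeeping median turned to 0.13 with spike-in centring, also added after seeing the data. With the replicate block, 2055 genes were higher and 2452 lower. The deviations of same-numbered tumours correlated at 0.41 for number 1 and at -0.11 to -0.03 for the others. These values do not settle whether the numbers pair the samples. With the slide as a block the counts were 2034 and 2497, and 450 genes far above and 284 far below were alike. Of the values for single genes, 3917 kept their call or the lack of one, 38 lost a call and 47 gained one. No gene called in the main run changed sign. The other 13 values changed sign in genes not called in the main run, or had no main value. Of the lists' values, 45 medians and 59 counts moved and 524 and 1081 did not, beside the housekeeping median. Where a cause is not given here, the cause was not tested. Genes dim in one channel have the least certain sizes, since background correction sets them.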

Other observations

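Some genes far from the reference in all 10 tumours varied widely among them, and these were picked by their SD after the values were seen. Sparcl1, a matricellular protein of vessels and glia, ran from 2.28 to 5.57 (SD 1.11) and Pcdhac2, a clustered protocadherin, from 2.19 to 4.56. Rgs4, a regulator of G protein signalling, ran from 2.02 to 5.82 with an SD of 1.10, and its SD was larger in the reference channel (0.748) than in the tumour channel (0.442), although the reference is the same RNA on each array. Among genes far below, Efemp1, a fibulin of the matrix, ran from -5.69 to -2.10 (SD 1.36), and Serpinf1, the anti-angiogenic factor PEDF, from -5.79 to -2.18. Grem1, an antagonist of BMP signals, stayed between -3.86 and -3.59, and Irx1, a homeobox gene, between -3.35 and -3.07.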
